A study of Mus musculus with 12 samples.

Results

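Src family kinases and 2 kinases that act beside them were followed in splenic B cells of BALB/c mice aged post-natal day 42 to 49, as 9 of the 28019 genes and loci of the deposited expression table. They were matched by symbol and were chosen by name, with earlier measured values of the same libraries known, so their own values are given as a description, without p-values. They were in the fit over all genes, and the counts of kinases it called are printed beside those of known genes without reading anything from them. Of the 9 genes, 7 are Src family kinases (Lck, Lyn, Fyn, Blk, Fgr, Src and Yes1), while Csk and Syk are not. RNA was sequenced from 12 libraries in 4 groups of 3. The CpG-treated groups were kept for 24 h with 1 µM of CpG-A, CpG-B or CpG-C, and the control group was kept without a CpG oligodeoxynucleotide. The labels used here do not state the purification of the cells or whether libraries of a group came from separate mice or cultures, so the spread between libraries may be technical. The study asked how the 3 classes of CpG oligodeoxynucleotide differ in what they do to B cells.

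Src family kinases are membrane-anchored tyrosine kinases that start signalling from antigen receptors. In B cells, Lyn, Blk and Fyn are attached to the B cell receptor and phosphorylate the tyrosine motifs of CD79A and CD79B, to which Syk then binds. Csk holds the family inactive by phosphorylating an inhibitory tyrosine near the carboxyl end, and Lyn also phosphorylates inhibitory receptors. Lck is best known as the kinase of the CD4 and CD8 co-receptors of T cells, and it is also found in some B cells, such as B-1 cells. CpG oligodeoxynucleotides are short synthetic DNAs with unmethylated CpG dinucleotides that are sensed by Toll-like receptor 9.

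Expression is given in FPKM, that is fragments per kilobase of a transcript relative to the mapped total of the library, which corrects for transcript length and so allows levels of different genes to be compared. The steps between low FPKM values gave depths of 14.3 to 25.7 M mapped fragments per library (M for mega). Depth differed by group, at 14.3 to 17.2 M in the control, 21.4 to 22.6 M with CpG-A, 24.4 to 25.0 M with CpG-B and 24.5 to 25.7 M with CpG-C. The control libraries stood apart at the low end of the table. There, the median FPKM of the 8337 unnamed loci was 0.343 with CpG-A, 0.0667 with CpG-B and 0.05 for CpG-C cultures, against 1.73 in the controls. A known gene or unnamed locus reached 1 FPKM in 10761 to 11562 cases per CpG library, and in 15491 to 18591 cases per control library. All 8 B cell markers on a fixed list averaged above 1 FPKM in every group, led by Cd79a at 945 to 1670 FPKM in the single libraries. Log2 changes below are on the log2(FPKM + 1) scale with their SE, from a limma fit over all 12 libraries, and a gene was called at a Benjamini-Hochberg adjusted p under 0.05 over the 15853 genes and loci tested.

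RefSeq promoter windows were at hand for 7 of the 9 genes, 10 windows in all, and Lck had one at an upstream and one at a downstream start. Each window runs from 250 bases before to 50 bases after the start in build GRCm38.p6. The windows of Lck are shown because its pattern over the groups was the one that separated the 3 CpG classes, and those of Fgr and Syk because the first was lower and the second higher with CpG-B and CpG-C. Lck upstream lies at chr4:129573592-129573891 on the minus strand, Lck downstream at chr4:129558323-129558622 on the minus strand, Fgr at chr4:132973845-132974144 on the plus strand and Syk at chr13:52583187-52583486 on the plus strand.
Lck upstream: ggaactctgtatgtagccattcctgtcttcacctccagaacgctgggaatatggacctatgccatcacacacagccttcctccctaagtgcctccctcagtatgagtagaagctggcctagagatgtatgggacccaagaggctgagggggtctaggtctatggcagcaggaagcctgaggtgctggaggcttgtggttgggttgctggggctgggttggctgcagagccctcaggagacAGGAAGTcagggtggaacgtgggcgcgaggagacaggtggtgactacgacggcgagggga
Lck downstream: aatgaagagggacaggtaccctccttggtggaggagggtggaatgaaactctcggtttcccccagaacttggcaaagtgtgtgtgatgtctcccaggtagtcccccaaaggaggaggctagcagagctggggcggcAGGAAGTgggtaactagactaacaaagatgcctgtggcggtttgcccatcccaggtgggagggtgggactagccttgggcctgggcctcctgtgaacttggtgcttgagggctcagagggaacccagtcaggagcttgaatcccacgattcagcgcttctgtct
Fgr: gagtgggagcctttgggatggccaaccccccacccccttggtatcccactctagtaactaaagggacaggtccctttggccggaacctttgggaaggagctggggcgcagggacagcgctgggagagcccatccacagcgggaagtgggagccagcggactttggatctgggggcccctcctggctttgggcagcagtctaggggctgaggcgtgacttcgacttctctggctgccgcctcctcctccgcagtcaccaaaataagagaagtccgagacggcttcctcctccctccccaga
Syk: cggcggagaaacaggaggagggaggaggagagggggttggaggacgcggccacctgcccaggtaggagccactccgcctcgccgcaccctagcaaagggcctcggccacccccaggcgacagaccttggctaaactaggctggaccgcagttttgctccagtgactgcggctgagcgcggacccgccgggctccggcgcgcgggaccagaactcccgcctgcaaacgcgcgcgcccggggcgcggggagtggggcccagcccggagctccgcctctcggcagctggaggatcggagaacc
Capitals mark AGGAAGT, a core sequence bound by ETS factors, searched on both strands. It occurred 1 time in each Lck window and in none of the other 8 windows, while 9.35% of all 32851 RefSeq promoter windows hold it. In all, 5 motifs were searched, and AGGAAGT was chosen after the windows had been read, because GAGGAAGT, ATGCAAAT, GAAANNGAA and GGGNNTTTC had no match in any window of these genes. GAGGAAGT contains AGGAAGT, so those searches overlap. The matches describe letters in the windows, and no binding was measured.

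Lck, in mean level, was highest with CpG-A and lowest with CpG-B. Its gene lies at chr4:129548344-129573641 on the minus strand. CpG-A libraries held 108.97, 107.54 and 105.88 FPKM of Lck, CpG-B libraries 24.11, 25.24 and 19.36 FPKM, CpG-C libraries 45.5, 43.4 and 38.12 FPKM, and control libraries 79.81, 74.13 and 83.83 FPKM. No library of one group fell within the range of another, so CpG-A was the highest, the control next, then CpG-C, then CpG-B. The means were 107 ± 1.55, 22.9 ± 3.12, 42.3 ± 3.8 and 79.3 ± 4.87 FPKM in the same order of groups (SD, n = 3 each). Against the control, the log2 change of Lck was 0.44 ± 0.1 with CpG-A, -1.75 ± 0.1 with CpG-B and -0.89 ± 0.1 for CpG-C cultures, and these 3 comparisons share the control libraries. Lck with CpG-B was 21.3% of its mean with CpG-A, a log2 change of -2.19 ± 0.1, and with CpG-C it was 39.4% of that mean, a log2 change of -1.33 ± 0.1. CpG-C cultures held 1.85 times the Lck of CpG-B cultures, a log2 change of 0.86 ± 0.1. That difference ranged over 0.75 to 0.94 when any one library was left out.

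**Figure D1:**
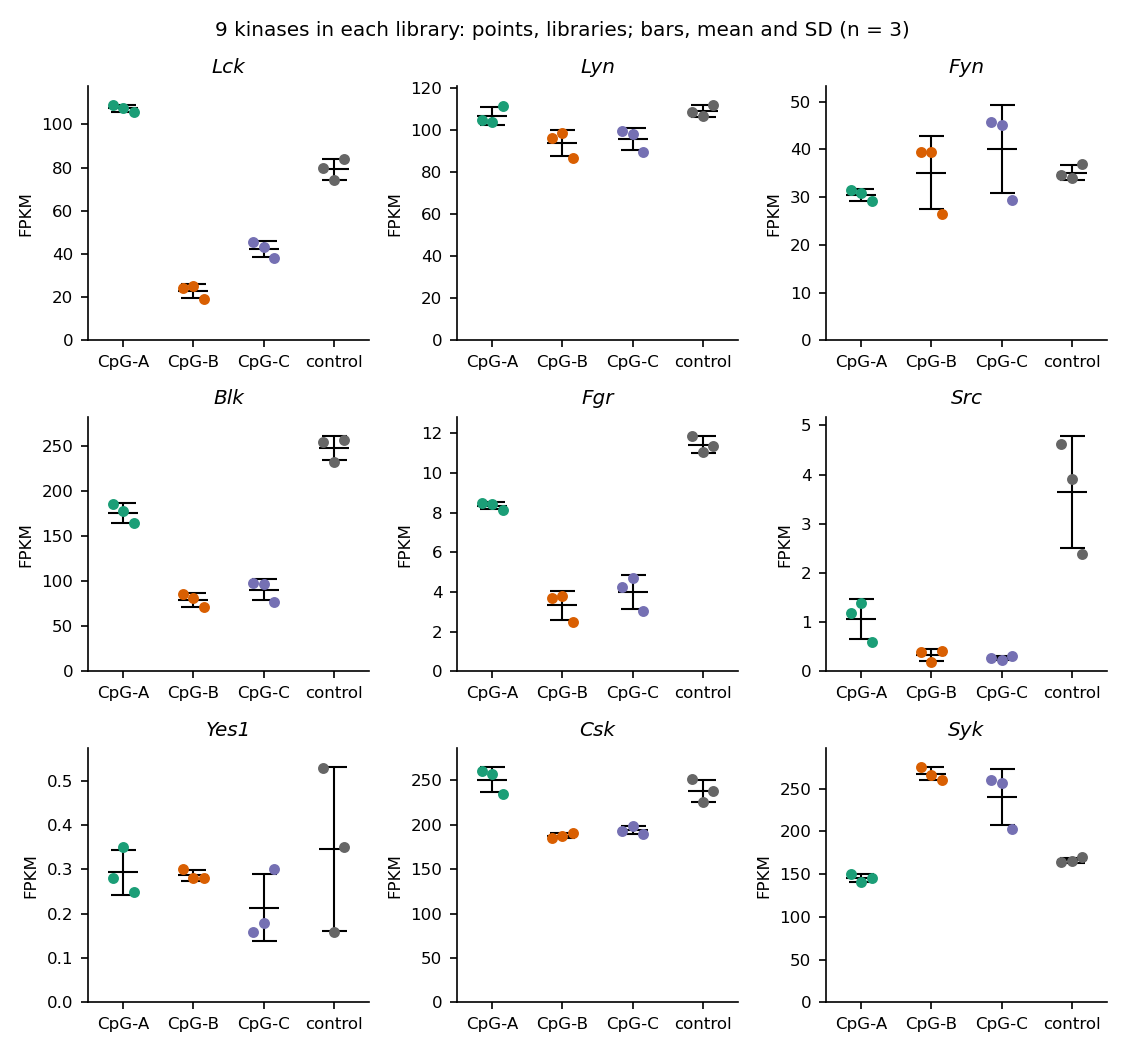
FPKM of the 9 kinases (one panel each, own linear axis from 0) in the 3 libraries of each group. Points are libraries, and bars are the mean and SD. Lck is the panel in which all 4 groups are apart, at 105.88 to 108.97 FPKM with CpG-A, 19.36 to 25.24 with CpG-B, 38.12 to 45.5 with CpG-C and 74.13 to 83.83 in the control.

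Because Lck and Fyn are also T cell kinases, the genes of the T cell receptor complex and its co-receptors were read in the same libraries. In bulk RNA, fewer cells of a type and less RNA per cell cannot be told apart. Cd3e, Cd3d, Cd3g, Cd247, Cd4 and Cd8a summed to 2.24 to 3.15 FPKM with CpG-A, 0.55 to 1.13 with CpG-B, 0.41 to 1.38 with CpG-C and 3.18 to 4.55 in the control. The highest value of any of these 6 genes was 1.63 FPKM in a CpG-A library and 1.63 FPKM in a control library. None of the 6 genes was at 0 in every library of a group. Cd3g had the same order of group means as Lck, at 1.23 FPKM with CpG-A, 0.16 with CpG-B, 0.333 with CpG-C and 0.907 in the control. Cd3e, Cd3d, Cd4 and Cd8a had their highest mean in the control, and Cd247 had it with CpG-B. Cd3e averaged 0.323, 0.08, 0.03 and 1.37 FPKM in CpG-A, CpG-B, CpG-C and control libraries. The part of T cells in the Lck and Fyn values was not tested. The whole list of 18 T cell markers summed to 77.2 to 87.3 FPKM with CpG-A, 102 to 125 with CpG-B, 80.7 to 88.7 with CpG-C and 115 to 137 in the control. Most of that sum was Cd2, an adhesion receptor that mouse B cells also express, and without Cd2 the sums were 6.16 to 7.89, 5.41 to 6.08, 4.48 to 5.18 and 11.0 to 16.0 FPKM in the same order. Of the 18 markers, 3 averaged above 1 FPKM in each CpG group and 7 in the control.

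**Figure D2:**
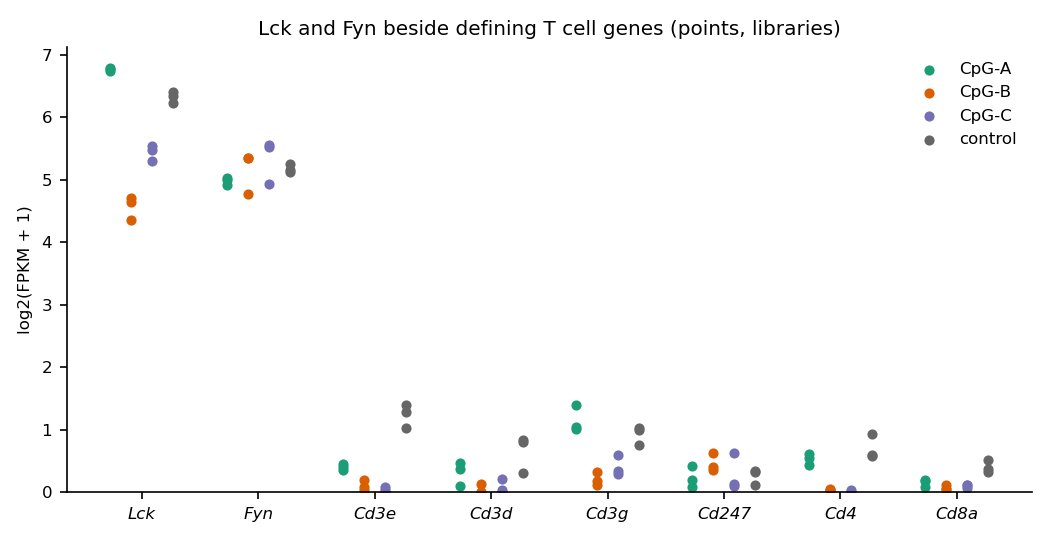
Log2(FPKM + 1) of Lck and Fyn beside 6 defining T cell genes, with one point per library and the groups in the order CpG-A, CpG-B, CpG-C and control. The T cell genes stay at or below 1.63 FPKM in all 12 libraries, while Lck lies between 19.36 and 108.97 FPKM.

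Blk, a kinase largely restricted to B cells, was the most abundant Src family member in the control and was lower with every CpG class. CpG-A libraries held 185.74, 177.03 and 163.99 FPKM of Blk, CpG-B libraries 85.94, 81.03 and 70.88 FPKM, CpG-C libraries 97.83, 96.91 and 76.74 FPKM, and control libraries 254.14, 231.82 and 255.88 FPKM. The control, CpG-A and the other 2 CpG groups were apart, while the ranges of CpG-C and CpG-B overlapped. The log2 change of Blk against the control was -0.49 ± 0.1 with CpG-A, -1.63 ± 0.1 with CpG-B and -1.45 ± 0.1 for CpG-C cultures. Between the classes it was -1.14 ± 0.1 for CpG-B against CpG-A and -0.96 ± 0.1 for CpG-C against CpG-A.

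Fgr, a member best known from myeloid cells, had the pattern of Blk at a much lower level. It stood at 8.48, 8.42 and 8.14 FPKM with CpG-A, 3.72, 3.79 and 2.49 FPKM with CpG-B, 4.27, 4.71 and 3.03 FPKM with CpG-C, and 11.86, 11.05 and 11.36 FPKM in the control. Again the control lay above CpG-A and CpG-A above the other 2 groups, whose ranges overlapped. The log2 change of Fgr against the control was -0.41 ± 0.14, -1.53 ± 0.14 and -1.33 ± 0.14 with CpG-A, CpG-B and CpG-C. The 8 monocyte and macrophage markers summed to 16.9 to 17.7 FPKM with CpG-A, 5.97 to 6.83 with CpG-B, 6.71 to 9.46 with CpG-C and 9.48 to 12.3 in the control. Among them, 1 was at 0 in every CpG-C library. Adgre1 led with CpG-A (mean 11.8 FPKM) and in the control (6.51), and without it those sums were 5.34 to 5.82 and 4.13 to 5.63. Itgam instead averaged 0.19, 2.05, 1.99 and 0.0767 FPKM with CpG-A, CpG-B, CpG-C and in the control. The part of monocytes and macrophages in the Fgr values was not tested.

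Lyn, the main kinase of the B cell receptor and of its inhibitory partners, varied least among the abundant members. CpG-A libraries held 104.53, 103.74 and 111.22 FPKM of Lyn, CpG-B libraries 96.03, 98.55 and 86.73 FPKM, CpG-C libraries 99.51, 97.86 and 89.53 FPKM, and control libraries 108.51, 106.41 and 111.86 FPKM. CpG-A overlapped the control, and both lay above CpG-B and CpG-C. The log2 change of Lyn against the control was -0.03 ± 0.07, -0.22 ± 0.07 and -0.19 ± 0.07 with CpG-A, CpG-B and CpG-C. Scaled to a fixed sum per library, the changes of Lyn with CpG-B and CpG-C were -0.51 and -0.44.

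Fyn, which serves both antigen receptors, had its widest spread within CpG-B and CpG-C. CpG-A libraries held 31.6, 30.85 and 29.15 FPKM of Fyn, CpG-B libraries 39.52, 39.53 and 26.41 FPKM, CpG-C libraries 45.74, 45.13 and 29.4 FPKM, and control libraries 34.6, 33.97 and 36.94 FPKM. The third library of CpG-B and of CpG-C lay below every control library, and the other two of each lay above all of them, so that CpG-B and CpG-C overlapped the control while CpG-A lay below it. The log2 change of Fyn against the control was -0.2 ± 0.17 with CpG-A, -0.02 ± 0.17 with CpG-B and 0.16 ± 0.17 for CpG-C cultures. Without the third libraries of CpG-B and CpG-C, left out together after the data were seen, Fyn changed by 0.16 with CpG-B and by 0.36 with CpG-C. The sign of Fyn with CpG-C against the control turned when each library was scaled to a fixed sum (-0.09) and with upper-quartile factors over nonzero values (-0.25).

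Src and Yes1, the broadly expressed members, were at the bottom of the family. Src was at 1.19, 1.39 and 0.6 FPKM with CpG-A, 0.39, 0.19 and 0.41 FPKM with CpG-B, 0.28, 0.23 and 0.31 FPKM with CpG-C, and 4.63, 3.91 and 2.39 FPKM in the control. The control libraries were the highest, CpG-A next, and CpG-B and CpG-C overlapped. Src passed the filter of above 1 FPKM in at least 3 libraries only through the control and 2 CpG-A libraries. The filter thus favoured a difference from the groups below it, and nothing is read from the calls of Src. Its log2 change against the control was -1.16 ± 0.19, -1.78 ± 0.19 and -1.84 ± 0.19 with CpG-A, CpG-B and CpG-C, and with a pseudocount of 0.1 in place of 1 it was -1.71, -3.12 and -3.28. The unnamed loci had the same order of groups, and the part of that low-level signal in the Src values was not tested. Yes1 stayed at 0.16 to 0.53 FPKM over all 12 libraries, with all groups overlapping, and failed the filter.

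Csk, the inhibitory kinase of the family, and Syk, the kinase downstream of it, lay on opposite sides of the control with CpG-B and CpG-C. Csk held 260.57, 257.29 and 234.39 FPKM with CpG-A, 184.71, 187.1 and 190.87 FPKM with CpG-B, 193.25, 198.26 and 189.6 FPKM with CpG-C, and 250.83, 225.73 and 237.4 FPKM in the control. CpG-A overlapped the control, and both lay above the other 2 groups. Syk held 150.32, 141.18 and 145.98 FPKM with CpG-A, 275.33, 265.37 and 260.51 FPKM with CpG-B, 260.53, 256.86 and 202.95 FPKM with CpG-C, and 164.01, 165.14 and 169.56 FPKM in the control. CpG-B and CpG-C lay above the control and CpG-A just below it. The log2 change of Csk against the control was 0.07 ± 0.07, -0.34 ± 0.07 and -0.29 ± 0.07 with CpG-A, CpG-B and CpG-C, and that of Syk was -0.19 ± 0.09, 0.68 ± 0.09 and 0.52 ± 0.09. Both depended in size on the scaling. With each library scaled to a fixed sum, Csk changed by -0.64 with CpG-B and -0.55 with CpG-C, and Syk by 0.38 and 0.27, beside medians of -0.26 and -0.21 over known genes. With upper-quartile factors over nonzero values, Syk changed by 0.34 with CpG-B and 0.1 with CpG-C, beside medians of -0.31 and -0.36, and its call with CpG-C ended. The sign of Csk with CpG-A was negative under all 4 other scalings, between -0.09 and -0.01.

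**Figure D3:**
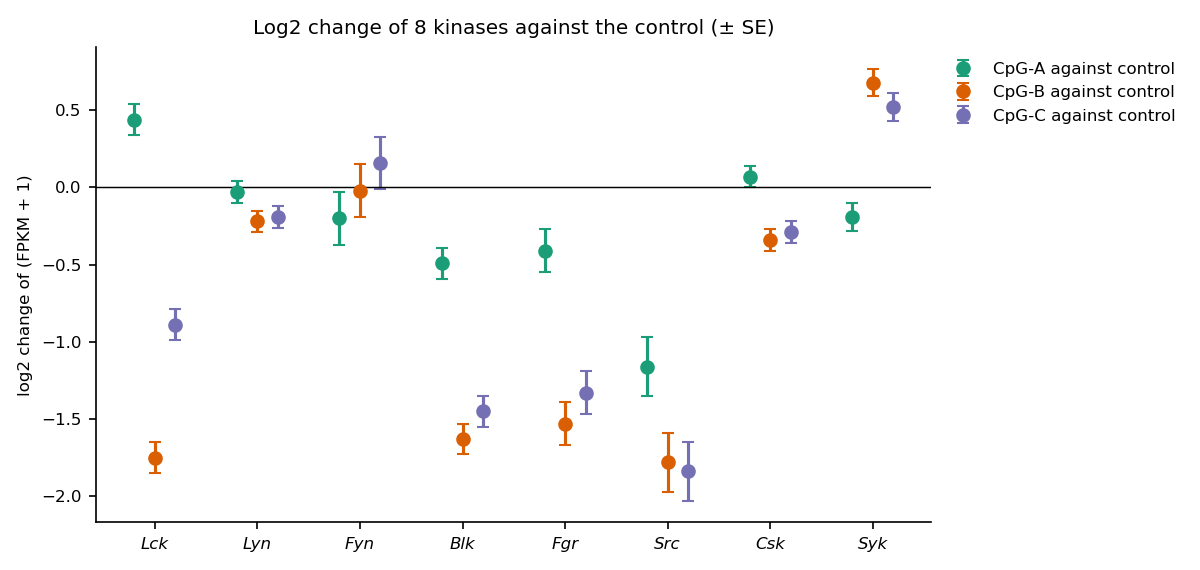
Log2 change of FPKM + 1 against the control for the 8 kinases that passed the filter, with SE, for CpG-A, CpG-B and CpG-C. Lck lies above 0 with CpG-A (0.44) and below it with CpG-B (-1.75) and CpG-C (-0.89), Syk lies above 0 with CpG-B (0.68) and CpG-C (0.52), and the 3 comparisons share the control libraries.

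Counts over the 7 kinases that were above 1 FPKM in every library are set beside the share of all 10860 known genes called in the same direction, and nothing is read from them, since the genes were chosen with these contrasts known. Src, which passed the filter only through the control and some CpG-A libraries, and Yes1, which failed the filter, are left out. With CpG-A against the control, Lck was higher and Blk and Fgr were lower, so 1 was called higher and 2 lower, where 32.8% of known genes were called higher and 22.1% lower. With CpG-B against the control, 1 was called higher (Syk), 5 lower and Fyn not called, where 34.8% of known genes were called higher and 35.3% lower. With CpG-C against the control, 1 was called higher (Syk) and 5 lower, where 35.7% of known genes were called higher and 34.5% lower. CpG-B against CpG-A gave 1 higher and 4 lower beside 17.7% and 29.2% of known genes, and CpG-C against CpG-A gave 1 higher and 4 lower beside 15.4% and 24.3%. In CpG-C against CpG-B, Lck was the 1 kinase called, higher, beside 0.166% of known genes called higher and 0.0921% called lower. In a fit of those 2 groups alone, or without the first CpG-C library, Lck was not called there, and its log2 change was 0.86 and 0.81. The call of Fgr with CpG-A ended without any one CpG-A library and without library 1 or 3 of the control. That of Lyn with CpG-C against the control ended with median-of-ratios scaling, in a fit of those 2 groups alone, and without CpG-C library 3 or control library 1 or 3.

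The make-up of the family differed between groups. The 7 members summed to 430 ± 11.0 FPKM with CpG-A, 235 ± 24.5 with CpG-B, 273 ± 31.0 with CpG-C and 486 ± 22.1 in the control (SD, n = 3 each). Blk was 40.8% of the sum with CpG-A, 33.8% with CpG-B, 33.1% with CpG-C and 50.8% in the control. Lyn was 24.8% of the sum with CpG-A, 40.0% with CpG-B, 35.2% with CpG-C and 22.5% in the control, although its own level differed little. Lck was 25.0% with CpG-A, 9.74% with CpG-B, 15.5% with CpG-C and 16.3% in the control. Lyn was thus the largest member with CpG-B and Blk with CpG-A and in the control, while the ranges of Lyn and Blk overlapped with CpG-C. Csk came to 0.583, 0.805, 0.715 and 0.49 times the family sum with CpG-A, CpG-B, CpG-C and in the control, and Syk to 0.339, 1.14, 0.878 and 0.342 times that sum.

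Ordered by mean FPKM, the 9 genes ran Csk, Blk, Syk, Lck, Lyn, Fyn, Fgr, Src and Yes1 with CpG-A, where the ranges of Lck and Lyn overlapped. With CpG-B the order was Syk, Csk, Lyn, Blk, Fyn, Lck, Fgr, Src and Yes1, and with CpG-C it was Syk, Csk, Lyn, Blk, Lck, Fyn, Fgr, Src and Yes1. Neighbours with overlapping ranges were Src and Yes1 in both, and also Lyn and Blk, and Lck and Fyn, with CpG-C. In the control the order was Blk, Csk, Syk, Lyn, Lck, Fyn, Fgr, Src and Yes1, and only Blk and Csk overlapped. Lck thus stood above Fyn in CpG-A and control libraries, overlapped it in CpG-C libraries and stood below it in CpG-B libraries.

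**Figure D4:**
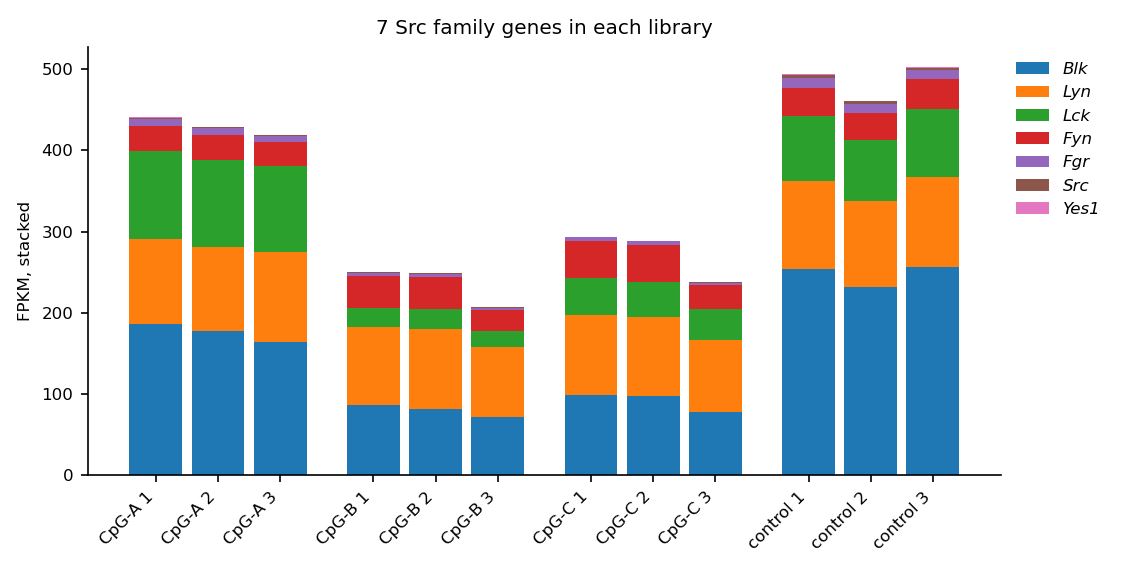
FPKM of the 7 Src family genes, stacked for each of the 12 libraries. The stack averages 430 FPKM with CpG-A, 235 with CpG-B, 273 with CpG-C and 486 in the control, and the Lck band is narrowest with CpG-B, at 19.36 to 25.24 FPKM.

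Genes around the kinases, 73 in 4 lists, were tested in the same fit, and 65 of them passed the filter. Of these, 9 rose and 23 fell with CpG-A, 16 rose and 33 fell with CpG-B, and 14 rose and 33 fell with CpG-C, each against the control. Of known genes, 32.8% rose and 22.1% fell with CpG-A, 34.8% and 35.3% with CpG-B, and 35.7% and 34.5% with CpG-C. The same shares stand beside the counts of each list below, and nothing is read from those counts. The median log2 change of the 65 genes was -0.16, -0.32 and -0.3, beside 0.05, 0 and 0.01 over all known genes tested. In CpG-B against CpG-A, 11 rose and 25 fell, in CpG-C against CpG-A 10 rose and 22 fell, and in CpG-C against CpG-B none rose and 1 fell, a call lost with the replicate block. Known genes that rose and fell were 17.7% and 29.2%, 15.4% and 24.3%, and 0.166% and 0.0921% in the same 3 comparisons. The split of the 65 genes moved with the scaling. With median-of-ratios factors, 6 rose and 33 fell with CpG-A against the control, and 16 rose and 16 fell in CpG-B against CpG-A and 15 and 15 in CpG-C against CpG-A. With each library scaled to a fixed sum, 4 rose and 33 fell with CpG-A, 9 rose and 43 fell with CpG-B, and 8 rose and 42 fell with CpG-C. On the unscaled values, the medians of the 3 comparisons between classes were -0.13, -0.14 and -0.01, beside -0.11, -0.1 and 0 over all known genes tested. The lists were chosen with earlier results of these data known, and genes are named below by the size of their called changes. Adjusted p-values of the named genes thus come from the data that led to their choice, and lend it no separate support.

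Regulators of the family, 18 genes that are mostly phosphatases, adaptors and ubiquitin ligases, gave 3 that rose and 5 that fell with CpG-A. They gave 4 and 10 with CpG-B, and 5 and 10 with CpG-C. Ptpn12, a phosphatase, averaged 45 ± 4.46 FPKM with CpG-B and 41.9 ± 2.4 FPKM with CpG-C, against 11.1 ± 0.613 FPKM in the control (adjusted p = 4.82e-09 and 7.03e-09). Cblb, a ubiquitin ligase that restrains antigen receptor signalling, rose with all 3 classes, with log2 changes of 0.7 ± 0.17, 1.48 ± 0.17 and 1.43 ± 0.17 for CpG-A, CpG-B and CpG-C. Ptpn22, a phosphatase that works with Csk, rose by 0.44 ± 0.11 with CpG-A (adjusted p = 0.00415), and that adjusted p was 0.059 when libraries were scaled to a fixed sum. It was also called higher with CpG-B (0.42 ± 0.11) and with CpG-C (0.41 ± 0.11). Dok3, an inhibitory adaptor of B cells, averaged 205, 116 and 111 FPKM with CpG-A, CpG-B and CpG-C, against 356 FPKM in the control, and fell with each (adjusted p = 0.000321, 8.64e-07 and 6.18e-07). Dok2, a related adaptor, fell with each class, with log2 changes of -0.75, -1.35 and -1.3 for CpG-A, CpG-B and CpG-C. Pag1, which anchors Csk at the membrane, averaged 10.3 ± 4.03 FPKM with CpG-B and 11.8 ± 2.87 FPKM with CpG-C. Its control mean was 27.9 ± 2.31 FPKM (adjusted p = 0.000178 and 0.000706).

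Related tyrosine kinases gave 2 that rose and 3 that fell with CpG-A, 5 and 4 with CpG-B, and 3 and 4 with CpG-C, of 9 tested among 15 listed. Tec fell with every class, to 39.7, 20.8 and 22.2 FPKM with CpG-A, CpG-B and CpG-C, against 79.2 FPKM in the control (adjusted p = 1.26e-05, 2.67e-08 and 3.89e-08). Btk is the Tec family kinase that activates phospholipase C gamma in B cells. It averaged 112 ± 3.28, 74.6 ± 3.81 and 77.6 ± 3.77 FPKM with CpG-A, CpG-B and CpG-C, against 151 ± 11.1 FPKM in the control. Ptk2b fell with every class, with log2 changes of -0.49, -0.81 and -0.93 for CpG-A, CpG-B and CpG-C (adjusted p = 0.000119, 1.28e-06 and 5.08e-07). Fes rose by 0.58 ± 0.14 with CpG-B (adjusted p = 0.00234), a call that 2 of the other scalings ended, with adjusted p-values of 0.112 and 0.0937.

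Proximal B cell receptor signalling, 26 tested genes of 27 listed, gave 3 that rose and 9 that fell with CpG-A, 5 and 12 with CpG-B, and 4 and 12 with CpG-C. Blnk, the adaptor that Syk phosphorylates, averaged 188 ± 4.69, 204 ± 19.4 and 182 ± 9.62 FPKM with CpG-A, CpG-B and CpG-C. Its control mean was 134 ± 6.52 FPKM (adjusted p = 0.000164, 1.65e-05 and 0.000244). Grb2, an adaptor toward Ras, rose by 0.71 ± 0.08 with CpG-B and by 0.7 ± 0.08 with CpG-C. With CpG-A it rose by 0.19 ± 0.08, close to the cutoff (adjusted p = 0.0485). Vav2, an exchange factor, rose by 0.21 ± 0.06 with CpG-A (adjusted p = 0.00814), by 0.32 ± 0.06 with CpG-B and by 0.4 ± 0.06 with CpG-C. Pik3ap1, an adaptor of PI3-kinase, rose by 0.45 ± 0.16 with CpG-B and by 0.66 ± 0.16 with CpG-C (adjusted p = 0.0192 and 0.00188). The Vav2 call with CpG-A was lost under every other scaling (adjusted p = 0.078 to 0.507). The Pik3ap1 call with CpG-C was lost under 2 of them (adjusted p = 0.0546 and 0.126). Other scalings were followed only in comparisons where the rule named the gene, so not for Pik3ap1 with CpG-B or Grb2 with CpG-A. Cd79a, the receptor subunit, averaged 1110 ± 48.5, 1270 ± 126 and 1190 ± 212 FPKM with CpG-A, CpG-B and CpG-C, against 1620 ± 49.4 FPKM in the control. Cr2, a complement receptor of B cells, fell with each class, with log2 changes of -0.49, -0.93 and -0.99 for CpG-A, CpG-B and CpG-C.

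Inhibitory receptors and their effectors, 12 tested of 13 listed, gave 1 that rose and 6 that fell with CpG-A, 2 and 7 with CpG-B, and 2 and 7 with CpG-C. Fcrl5, which carries both activating and inhibitory motifs, averaged 37.7 ± 0.749, 104 ± 26.7 and 88.9 ± 18.8 FPKM with CpG-A, CpG-B and CpG-C, against 8.98 ± 0.811 FPKM in the control (adjusted p = 8.1e-06, 3.15e-08 and 5.2e-08). Fcrl1, whose human counterpart is an activating co-receptor, fell to 165, 60.8 and 52.8 FPKM with CpG-A, CpG-B and CpG-C, against 320 FPKM in the control (adjusted p = 3.32e-06, 5.76e-10 and 3.49e-10). Fcgr2b, the inhibitory Fc receptor, averaged 189 ± 4.95 FPKM with CpG-B and 165 ± 1.05 FPKM with CpG-C, against 81.9 ± 3.13 FPKM in the control (adjusted p = 1.37e-08 and 5.81e-08). Pirb, an inhibitory receptor for MHC class I, averaged 9.37, 4.45 and 4.45 FPKM with CpG-A, CpG-B and CpG-C, against 15.6 FPKM in the control, and fell with each (adjusted p = 0.00361, 2.78e-06 and 2.66e-06).

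**Figure D5:**
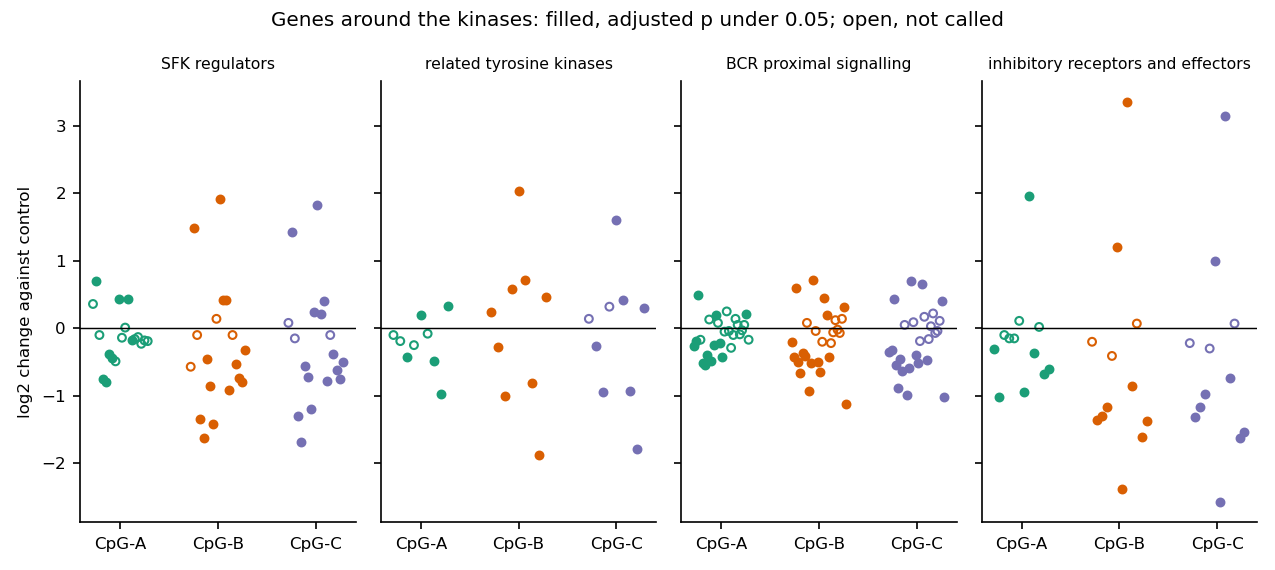
Log2 change against the control of the tested genes of the 4 lists (one panel each) for CpG-A, CpG-B and CpG-C, where filled points passed an adjusted p under 0.05 and open points did not. The highest points are Fcrl5 with CpG-B (3.36) and CpG-C (3.15), and the lowest are Fcrl1 with CpG-C (-2.58) and CpG-B (-2.38).

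The known genes most like each kinase were taken by Pearson r of log2(FPKM + 1) over the 12 libraries, among genes with at least 5 FPKM in some group. The libraries fall into 4 groups and share depth and scaling within each, so r reflects the group means for the most part and carries no test. Lck was most like Stag1 and Mtr (r = 0.984 each), then Apbb1ip (0.979), Mdn1 and Shank1 (0.978 each). Shank1 had the widest spread of these, at 9.58, 1.48, 2.99 and 8.87 FPKM with CpG-A, CpG-B, CpG-C and in the control. Blk was most like Vps9d1 and Snn (r = 0.996 each), and Fgr was most like Apoe (0.996) and Cep135 (0.995). Apoe averaged 488, 43.1 and 68.9 FPKM with CpG-A, CpG-B and CpG-C, against 1430 FPKM in the control. Lyn was most like Tbc1d23 (0.981) and Mpp5 (0.979), Fyn like Atp11b (0.977) and Ptov1 (0.958), Csk like Aldh16a1 (0.978) and Tor1b (0.974), and Syk like Gpx4 (0.993) and Gimap3 (0.991). Src and Yes1 were under the level required.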

How the data were processed

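RNA of 12 libraries was sequenced, 3 each with CpG-A, CpG-B, CpG-C and without CpG, grouped by their treatment label and numbered by their title. The deposited table holds FPKM per library, computed by the authors per the file headers, with values of 2 decimals. Build mm10 and the tools RSEM 1.2.8, Bowtie2 2.2.5, HISAT, StringTie and GATK are named in the submitters' processing notes, without their roles. Log2 ratios between groups, with p-values and q-values, were also deposited by the authors, the tool behind them is not stated, and those p-values and q-values were not used. Coordinates are those of the deposited table. There, 2 entries without a gene name were dropped.

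FPKM are not counts, so limma 3.58.1 (R 4.3.3) with a trend was fitted to log2(FPKM + 1) of genes above 1 FPKM in at least 3 libraries, with all 12 libraries and 4 group means in 1 fit. The change of low genes is understated on this scale. Benjamini-Hochberg adjustment ran over all 15853 genes and loci in the fit. The fit was tested on simulated data. The kinases and lists were chosen with earlier results of these data known. Named around the kinases are, of each list and comparison with the control, the 2 called genes with the largest log2 change up and the 2 down whose higher group averaged at least 10 FPKM, apart from genes that are counted but not reported here by name.

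Depth was found as the number of mapped fragments that makes low FPKM of single-transcript genes come closest to whole fragments, with 90.2 to 95.7% of values within 0.2 of a whole number where 40% would be by chance. FPKM give no interval for counting error. Same-numbered libraries deviated together from their group means in CpG-C and CpG-B (r = 0.59, 0.54 and 0.74), which pairs those groups by a rule of every r over 0.1, and in no other comparison did all 3 pairs pass it. Figures were drawn with matplotlib 3.10.9 in Python 3.11.15. Alternatives were a pseudocount of 0.1, other filters and scalings, known genes alone, the 2 groups alone, the replicate number as a block and leaving out each library.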

Additional observations from a re-analysis of the deposited data

How the results depend on the processing

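No called change of the 8 kinases in the fit changed sign under any alternative, but calls ended for Syk (CpG-C against the control, upper-quartile factors over nonzero values), Lyn (CpG-C against the control), Fgr (CpG-A against the control), Src (CpG-B and CpG-C against CpG-A) and Lck (CpG-C against CpG-B). Calls absent from the fit appeared under some alternatives for Fyn, Lyn and Syk. Of the genes around them that the naming rule picked 731 values under alternatives kept their call and 20 lost it. Without the filter on low values, 16891, 19869 and 19856 genes and loci were called with CpG-A, CpG-B and CpG-C against the control and 19 in CpG-C against CpG-B, with 0 genes around the kinases there. With a filter of 5 FPKM, which left 9276 genes and loci, the counts against the control were 5191, 6578 and 6590, and 3977 in CpG-C against CpG-A. Over the 10860 known genes alone, the counts against the control were 5873, 7609 and 7626. The direction of the calls moved too. Higher calls made up 35.9%, 33.1% and 33.8% with CpG-A, CpG-B and CpG-C in the main fit. They made up 62.8%, 51% and 52.4% with the 5 FPKM filter, and 59.8%, 49.6% and 50.7% over known genes alone. The main counts of genes called were 10426, 12294 and 12268 against the control, 7074 and 6456 against CpG-A, and 29 in CpG-C against CpG-B. In a fit of only the 2 groups, CpG-C against CpG-B gave 0 genes, 0 genes around the kinases and 0 kinases, and 0 genes around the kinases were called there with TPM scaling (each library to a fixed sum) or with the replicate block, where the pairing gave 30 genes and left Lck called. The replicate block changed no count of kinases called.

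Leaving out any one library gave 1 to 28 genes, 0 to 1 genes around the kinases and 0 to 1 kinases in CpG-C against CpG-B, and 3820 to 5584 genes in CpG-C against CpG-A. With library 3 of both CpG-B and CpG-C left out, an alternative chosen after seeing the data, 87 genes were called in CpG-C against CpG-B and 7152 in CpG-C against CpG-A.

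Of the called genes, 29.4% in CpG-B against CpG-A and 28.1% in CpG-C against CpG-A were higher, and with median-of-ratios scaling these were 47.8% and 45.9%. With TPM scaling they were 17.4% and 17.7%, and 21.8% and 23.5% in CpG-B and CpG-C against the control, where the main shares were 33.1% and 33.8%. Upper-quartile factors were first taken over the nonzero values of each library and, after those results were seen, over the tested genes, so both are given. Over nonzero values the median log2 change of known genes was -0.31 with CpG-B and -0.36 with CpG-C, 50 genes around the kinases were called in CpG-C against CpG-A, and 19.8% and 17.7% of calls were higher with CpG-B and CpG-C. Over tested genes both medians were 0, and those shares were 33.1% and 32.9%. The cause was not tested. Yes1 had no value because it failed the filter. At these depths Src and Yes1 were near the low end of the scale.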

Other observations

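The authors' deposited table gives its own log2 ratios between groups, and for most of the kinases they were close to the log2 ratio of mean FPKM. For Src, the authors' deposited table gives -0.83, -2.29 and -2.46 for CpG-A, CpG-B and CpG-C against the control, where the ratio of mean FPKM is -1.78, -3.46 and -3.74. For Blk, the authors' deposited table gives -0.62, -1.91 and -1.7, where the ratio of mean FPKM is -0.49, -1.64 and -1.45. For Lck, the authors' deposited table gives 0.43, -1.79 and -0.91, beside 0.44, -1.79 and -0.9.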
